A study of Rattus norvegicus with 14 samples.

Results

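Transcript levels in the hippocampus were compared between rats of a pentylenetetrazole (PTZ) seizure model and control rats. Every library labelled as PTZ (n = 5) or control (n = 4) was taken, 9 of the 14 samples of the series, and all genes were compared. All rats carried the Wistar strain and wild type labels and 1 labelled weight class, and were allocated at random per the design text. Control rats had vehicle alone and PTZ rats had PTZ with vehicle. The other 5 rats had PTZ and the compound code-named Q808 and were on neither side of the comparison. The sources used here do not give the dose and route of PTZ, seizure scores, age, sex or the time from PTZ to sampling. RNA came from whole pieces of hippocampal tissue, so the values mix all cell types of the region.

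PTZ blocks the chloride channel of GABA-A receptors, which removes fast inhibition and lets neurons fire in synchrony. In strongly firing neurons, calcium entry and MAP kinase signalling activate factors that already sit at the promoters of immediate early genes. These genes encode transcription factors such as Fos, Egr1, Nr4a1 and Npas4, which in turn drive effector genes that act at synapses. The same signals also induce their own brakes, among them phosphatases of MAP kinases, inhibitors of NF-kB and proteins that destabilise short-lived mRNAs.

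Values are FPKM, numbers of sequenced fragments relative to the length of the transcript and the total of the library. The FPKM values of a gene were whole multiples of what 1 fragment is worth, and the numbers of fragments recovered in this way totalled 16487915 to 18432957 in each of the 9 libraries. The mean log2(FPKM + 1) of 4 granule cell markers was 3.73 to 4.02 in control and 3.59 to 3.94 in PTZ, and that of 4 CA1 markers was 5.05 to 5.42 and 5.24 to 5.62. Markers of hippocampal cells were thus present in every library. The mean of 5 neocortex markers was 3.20 to 3.82 in control and 3.36 to 4.02 in PTZ, and no other region was measured for comparison. Markers of neighbouring tissue varied with single libraries. Control replicate 2 had a mean of 5.36 over 8 striatal markers against 1.91 to 2.30 in the other 8 libraries. PTZ replicates 1 and 2 had means of 5.31 and 4.44 over 10 meningeal markers, against 3.43 to 3.70 in control and 3.10 to 3.64 in the other PTZ libraries. The choroid plexus transcript Ttr was 54.5 FPKM in control replicate 3 and 113 in PTZ replicate 2 against 3136 to 7125 in the others. Y-linked transcripts were present in control replicates 1 and 2 and in PTZ replicates 1, 2 and 5.

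Transcripts of 4 genes rose in the hippocampus of PTZ rats and 0 fell, and none of the 4 encodes a transcription factor. Apold1 encodes a protein of vascular endothelium that responds to activity and hypoxia, Cyr61 a secreted matricellular protein also named CCN1, Nfkbia the NF-kB inhibitor IkB-alpha and Zfp36 the mRNA decay factor tristetraprolin. These were 0.0314% of the 12744 genes tested in limma, with a Benjamini-Hochberg adjusted p under 0.05 over all of them. At an unadjusted p under 0.05 there were 1034 genes (8.11%), 535 with higher values (4.2%) and 499 with lower values (3.92%). The groups did not overlap for 386 genes (3.03%), with the PTZ libraries wholly above the control libraries for 184 (1.44%) and wholly below them for 202 (1.59%). Of these, 36 were higher by 1.5-fold or more on the log scale of the fit (0.282%) and 3 were lower by as much (0.0235%), namely Hes5, Slc35d3 and Sox9. Without control replicate 2 the log2 difference of Slc35d3 was -0.52, which is under 1.5-fold.

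Apold1 was at 3.07, 5.45, 6.78 and 5.36 FPKM in control replicates 1 to 4 and at 34.4, 31.5, 44.3, 46.7 and 16.8 FPKM in PTZ replicates 1 to 5. The lowest PTZ library was above the highest control library, and PTZ replicate 5 was the lowest of its group. The difference in log2(FPKM + 1) was 2.495 ± 0.279 (SE, adjusted p = 0.0041, limma), a ratio of mean FPKM of 6.73. The values rested on 158 to 344 fragments in control and 806 to 2357 in PTZ, so counting error was small beside the spread between libraries.

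Cyr61 was close to the detection filter in control, at 1.44, 1.74, 2.01 and 0.983 FPKM. It was at 28.5, 6.44, 19.1, 10.4 and 13.3 FPKM in the PTZ libraries. Its order of libraries was not that of Apold1, since PTZ replicate 1 was highest and PTZ replicate 2 lowest. The log2 difference was 2.56 ± 0.358 (adjusted p = 0.0263), on 35 to 70 and 237 to 1008 fragments.

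Nfkbia was at 11.8, 16.1, 17.9 and 16.5 FPKM in control and at 27.0, 24.6, 29.7, 35.8 and 34.6 FPKM in PTZ. Its groups did not overlap and its PTZ libraries were close together, with a mean of 30.3 ± 4.79 FPKM (SD, n = 5). The log2 difference was 0.92 ± 0.133 (adjusted p = 0.0263). Zfp36 was at 3.87, 5.35, 3.08 and 3.39 FPKM in control and at 10.6, 7.96, 10.4, 13.0 and 6.99 FPKM in PTZ, a log2 difference of 1.12 ± 0.175 (adjusted p = 0.0455).

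The calls depended on which libraries and groups entered the fit. When control and PTZ libraries were fitted without the third group, 0 genes passed, and the adjusted p was 0.0506 for Apold1, 0.101 for Cyr61, 0.107 for Nfkbia and 0.14 for Zfp36, with the same log2 differences. Apold1 was called in each of the 14 fits that left out 1 library, whereas the count of 4 became 1 when any of control replicates 1, 3 and 4 and PTZ replicates 3 and 4 was dropped. It became 2 when PTZ replicate 5 or the third PTZ+Q808 library was dropped, and 0 without control replicate 2 and PTZ replicates 1 and 2 together. In the 3 PTZ and 2 control libraries with Y-linked transcripts the log2 differences were 2.42 for Apold1, 2.502 for Cyr61, 0.99 for Nfkbia and 0.76 for Zfp36, and in the 2 and 2 without them 2.72, 2.63, 0.89 and 1.57. Mean endothelial marker levels were 3.36 to 3.73 on the log2 scale in control and 3.35 to 3.89 in PTZ. Fewer cells of a type and less RNA per cell cannot be told apart in such tissue, and p-values measure only the spread between these samples.

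**Figure D1:**
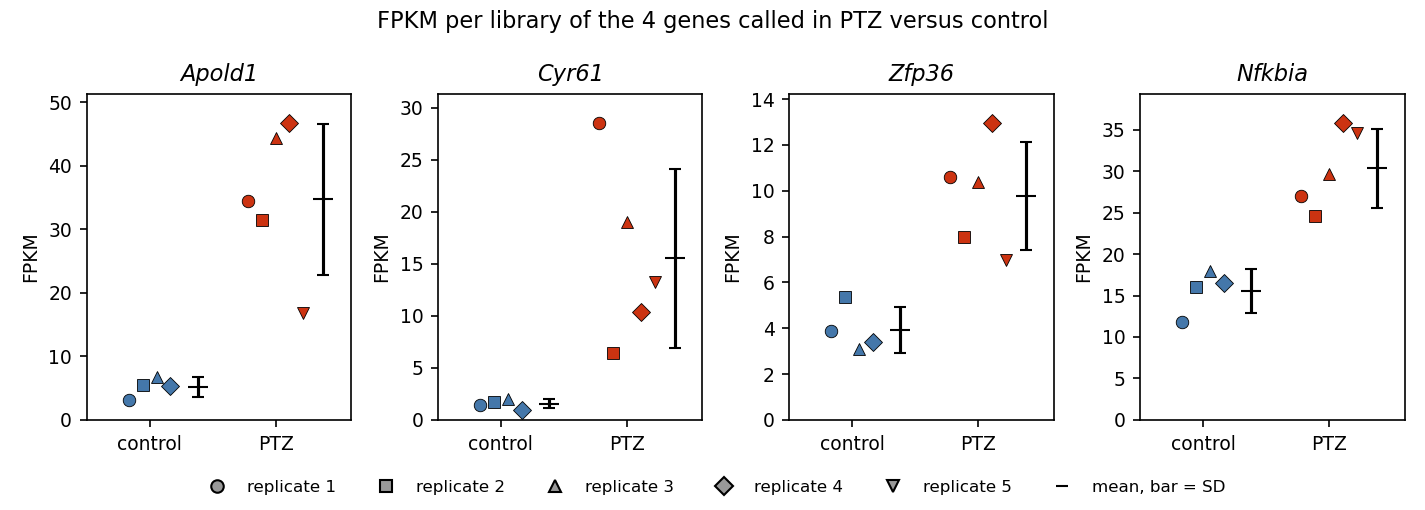
FPKM (vertical axes) of Apold1, Cyr61, Zfp36 and Nfkbia in each control (blue) and PTZ (red) library, with symbols by replicate number and the mean and SD beside each group. In each panel all 5 PTZ libraries lie above all 4 control libraries, and the order of the PTZ libraries differs between genes.

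The promoters of the 4 genes are shown because their transcripts rose together while their library orders differed. Each is the 250 bases before the RefSeq start site (build GRCr8), read 5′ to 3′ on the gene's strand, and RefSeq lists Cyr61 as Ccn1. Capitals mark the 1 match found in each among 5 motifs searched on both strands, with positions counted back from the start.
Apold1, chr4:169552349-169552598, plus strand: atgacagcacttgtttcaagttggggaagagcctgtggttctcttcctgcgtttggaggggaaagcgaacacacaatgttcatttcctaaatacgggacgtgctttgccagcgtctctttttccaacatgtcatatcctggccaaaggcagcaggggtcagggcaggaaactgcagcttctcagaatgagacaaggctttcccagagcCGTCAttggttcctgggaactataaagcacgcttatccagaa
Cyr61, chr2:237225690-237225939, minus strand: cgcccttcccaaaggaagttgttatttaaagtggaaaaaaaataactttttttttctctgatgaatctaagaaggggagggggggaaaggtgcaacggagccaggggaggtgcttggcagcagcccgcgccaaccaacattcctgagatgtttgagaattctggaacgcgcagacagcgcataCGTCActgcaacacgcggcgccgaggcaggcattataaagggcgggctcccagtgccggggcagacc
Nfkbia, chr6:78597073-78597322, minus strand: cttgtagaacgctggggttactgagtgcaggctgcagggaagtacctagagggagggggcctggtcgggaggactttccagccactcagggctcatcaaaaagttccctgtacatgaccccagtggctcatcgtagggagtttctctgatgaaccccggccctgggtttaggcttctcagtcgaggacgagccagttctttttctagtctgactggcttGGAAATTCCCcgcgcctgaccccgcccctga
Zfp36, chr1:92799109-92799358, minus strand: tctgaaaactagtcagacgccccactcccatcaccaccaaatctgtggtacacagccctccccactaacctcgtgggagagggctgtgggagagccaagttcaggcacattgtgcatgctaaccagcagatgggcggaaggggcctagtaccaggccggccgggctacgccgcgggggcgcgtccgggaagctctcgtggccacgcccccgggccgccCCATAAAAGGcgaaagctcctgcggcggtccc

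The 4 promoters did not share 1 motif. Apold1 and Cyr61 held the short core of the cyclic AMP response element (TGACG, found here as CGTCA on the other strand) at -42 to -38 and -67 to -63. Nfkbia held a match to the kappaB site, GGAAATTCCC, at -31 to -22, and Zfp36 a match to the CArG box of serum response factor, CCATAAAAGG, at -32 to -23. Over all 27457 RefSeq windows of 300 bases (250 before and 50 after the start), the core was in 22.0%, the full element TGACGTCA, which contains the core, in 1.91%, the kappaB site in 7.6%, the CArG box in 1.64% and the AP-1 site (TGACTCA or TGAGTCA) in 4.53%. Windows were matched for 10234 of the 12744 tested genes, where the core was in 31.6% and the CArG box in 1.2%. Of the 22 activity-induced factor genes described next, 15 had a window, with a core in 10 (66.7%) and a CArG box in 4 (26.7%). The core was also found in other lists, at 10 of 16 (62.5%) for synaptic effectors and 12 of 19 (63.2%) for sterol and fatty acid synthesis genes, whose means were lower in PTZ. A match describes the letters in the window only and was not tested as a bound site.

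Activity-induced genes had higher values in PTZ almost throughout, but 0 of the 65 tested members of 4 lists were called. The lists held AP-1 and related factors, other activity-induced transcription factors, synaptic and signalling effectors, and MAP kinase phosphatase and Sprouty feedback genes. Of the 65 genes, 61 had a higher mean in PTZ, 28 of them at an unadjusted p under 0.05 and 0 in the other direction, and 21 had PTZ libraries wholly above control. Over all 12744 genes 5897 (46.3%) had a higher mean, 4.2% were higher at an unadjusted p under 0.05 and 1.44% were wholly above control. The median log2 difference was 0.53 over the 65 genes and -0.01 over all genes. Atf3 and Fosl1 reached 1 FPKM in no control library, and over the other 63 genes 59 had higher means, 27 at an unadjusted p under 0.05 and 19 without overlap. Maff, counted among the 63, reached 1 FPKM in only 1 control library. With a term for Y-linked transcripts in the fit 3 of the 65 passed. These were Dusp1 (log2 difference 1.51, adjusted p = 0.0349), Bhlhe40 (0.62, adjusted p = 0.0409) and Fos (2.28, adjusted p = 0.0412), and each passed in that 1 of 28 alternatives. These genes were chosen with earlier results of these data known, so the direction is a description.

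**Figure D2:**
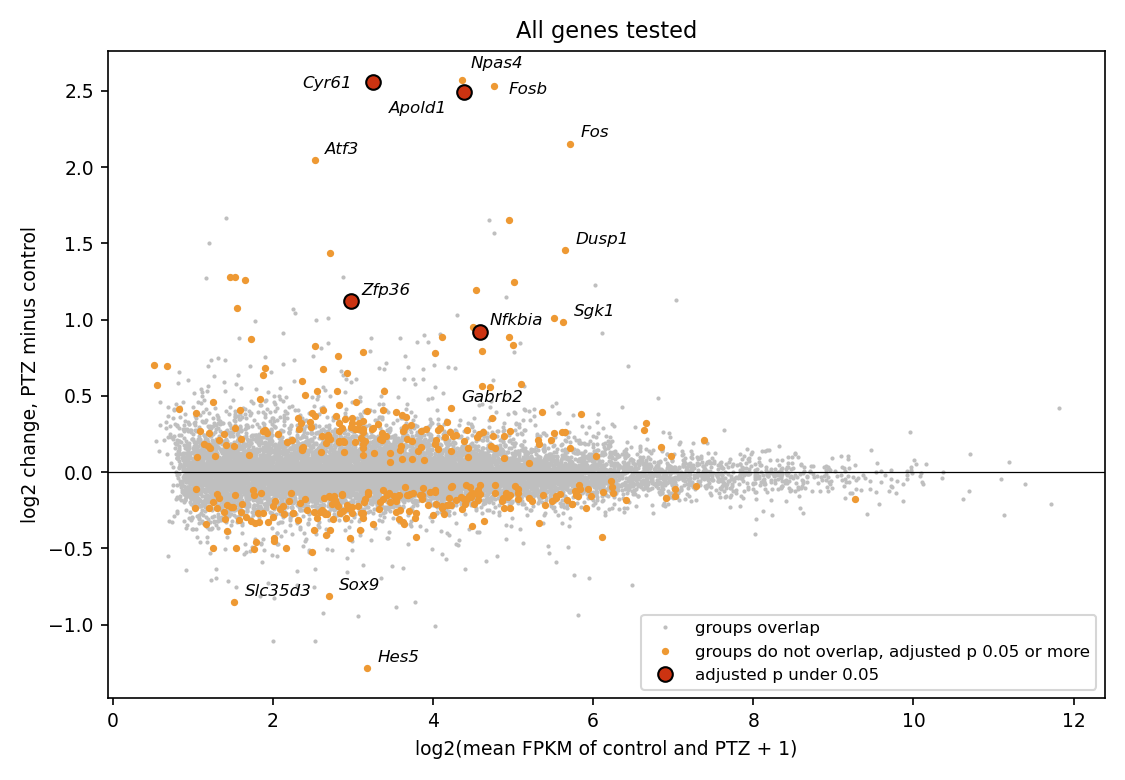
Log2 difference, PTZ minus control (vertical axis), against log2 of the mean FPKM of both groups plus 1 (horizontal axis) for the 12744 genes tested. Red points are the 4 called genes and orange points are genes whose groups do not overlap. Npas4, Fosb, Fos and Atf3 had differences as large as the called genes or nearly so without passing.

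Among AP-1 genes, whose products pair into the dimers that bind AP-1 sites, all 9 tested members had higher means (median log2 difference 1.23). Fos was at 11.2, 13.3, 23.4 and 17.0 FPKM in control and at 62.8, 43.2, 113, 175 and 38.8 FPKM in PTZ. Its groups did not overlap, and the PTZ libraries spanned a range from 38.8 to 175 (log2 difference 2.16 ± 0.53, adjusted p = 0.335). Fosb was at 3.65, 3.75, 5.98 and 6.45 FPKM in control and at 19.8, 17.3, 43.9, 138 and 17.3 FPKM in PTZ (2.53 ± 0.809, adjusted p = 0.468). Atf3, a stress-induced partner of Jun proteins, was below 1 FPKM in every control (0.527 to 0.825), at 3.24 to 4.99 FPKM in 4 PTZ libraries and at 28.7 FPKM in PTZ replicate 4. Maff, a small Maf protein without an activation domain, had the smallest p of the list (0.323 to 1.04 FPKM in control, 2.02 to 6.53 in PTZ, log2 difference 1.28 ± 0.278, adjusted p = 0.239). Of the controls only replicate 4 reached 1 FPKM for Maff, so Maff met the filter through libraries of rats given PTZ. Jund was at 58.1 to 67.5 FPKM in control and 57.2 to 106 in PTZ, and Jun at 31.7 to 41.4 and 33.6 to 110 FPKM (log2 differences 0.14 and 0.39). Junb, at a level in control near that of Jun, was at 22.4 to 46.9 and 44.8 to 219 FPKM (1.23 ± 0.539), and its groups overlapped. Fosl1 was at 0.0342 to 0.202 FPKM in control, 0.285 to 0.405 in 4 PTZ libraries and 2.68 in PTZ replicate 4.

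All 22 other activity-induced transcription factor genes had higher means in PTZ (median 0.70), 13 at an unadjusted p under 0.05 and 10 without overlap. The shares over all genes tested were 4.2% higher at that p and 1.44% wholly above control. Npas4, which is induced by calcium entry in neurons and shapes inhibitory synapses, was at 3.10, 4.32, 5.17 and 4.06 FPKM in control and at 22.7, 21.6, 55.8, 62.4 and 12.4 FPKM in PTZ. Its lowest PTZ library, replicate 5, was well above the highest control, and the log2 difference was 2.57 ± 0.591 (adjusted p = 0.303). Nr4a1, an orphan nuclear receptor gene, was at 6.78, 11.3, 21.1 and 16.4 FPKM in control and at 37.99, 32.2, 61.0, 75.3 and 24.3 FPKM in PTZ (1.65 ± 0.438, adjusted p = 0.37). The zinc finger genes Egr2, Egr4, Egr1 and Egr3 had differences of 1.44, 1.25, 1.13 and 1.01. Egr1 overlapped between groups (48.9 to 113 FPKM in control, 97.9 to 336 in PTZ), whereas Egr3 did not (21.5 to 26.0 and 31.0 to 169). Bhlhe40, a transcriptional repressor tied to the clock, had a narrower range (21.1 to 30.8 FPKM in control, 31.4 to 48.6 in PTZ, 0.58 ± 0.156). Myc had mean FPKM of 2.496 ± 0.132 (SD, n = 4) without PTZ and 2.57 ± 0.229 (n = 5) with it, a log2 difference of 0.03.

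**Figure D3:**
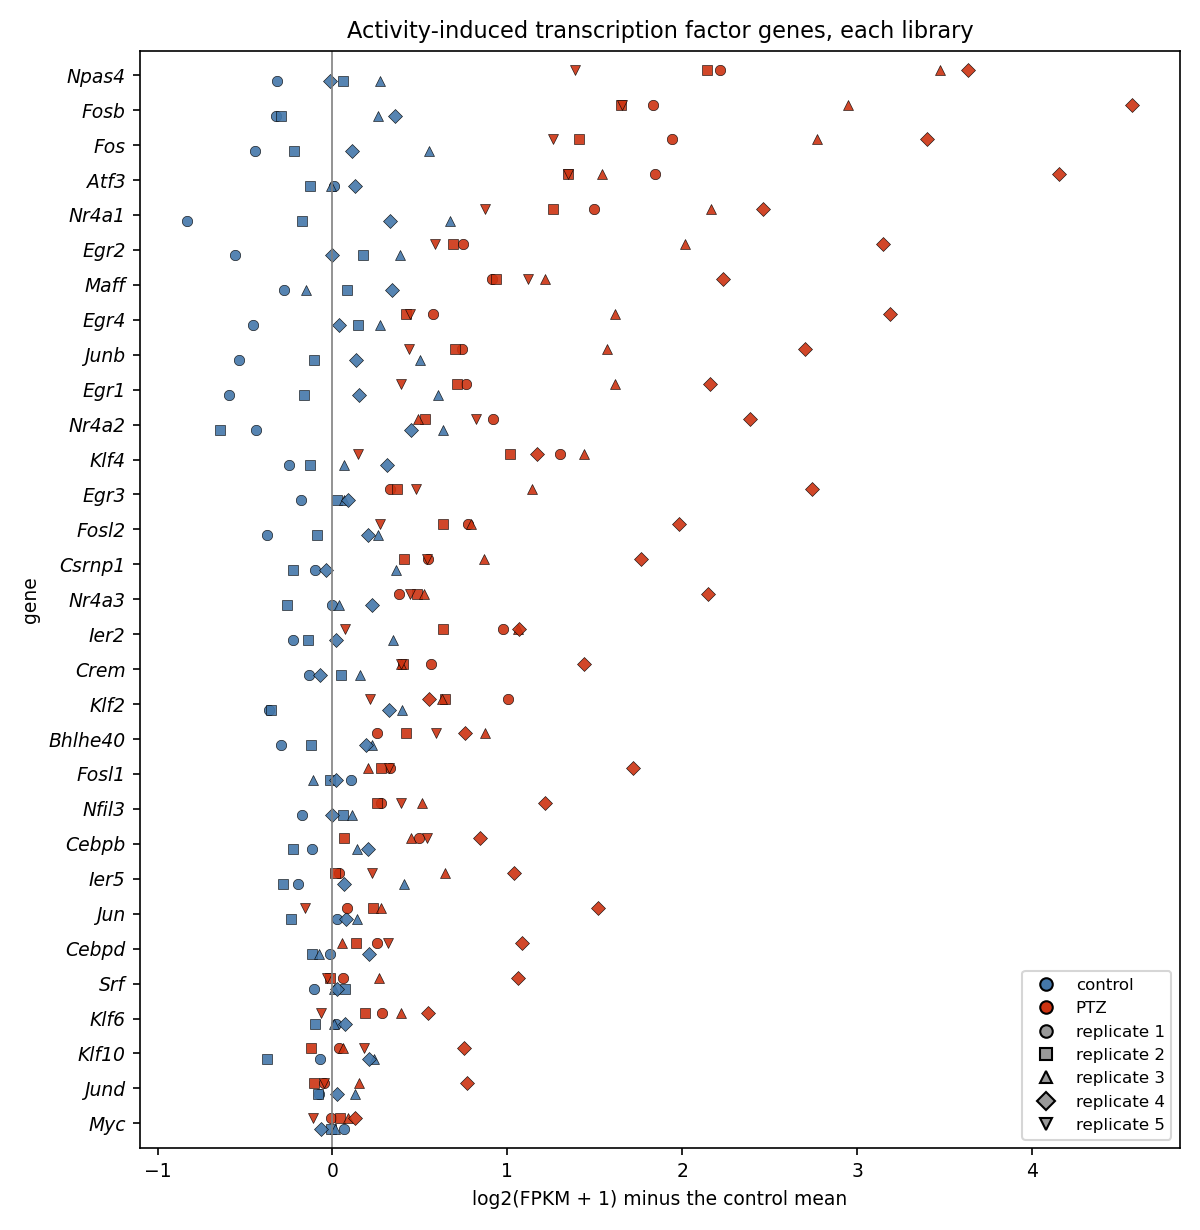
Log2(FPKM + 1) of each library minus the control mean (horizontal axis) for the 31 tested AP-1 and other activity-induced transcription factor genes (vertical axis), with control in blue, PTZ in red and symbols by replicate number. PTZ replicate 4 (red diamonds) is the farthest right for most genes, and PTZ replicates 1, 2 and 5 are closest to the controls.

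Synaptic effector genes had a lower median difference than the transcription factors. Of 20 tested, 18 had higher means (median 0.44) but only 4 had an unadjusted p under 0.05, and only Gem and Ptgs2 had groups that did not overlap. Without PTZ replicate 4 the median was 0.19 and 2 had an unadjusted p under 0.05. Arc, whose protein regulates AMPA receptor trafficking, was at 35.1, 54.0, 80.0 and 66.8 FPKM in control and at 71.9, 58.8, 146, 235 and 45.2 FPKM in PTZ. Its groups overlapped and control libraries themselves spanned 35.1 to 80.0 (log2 difference 0.70 ± 0.539, adjusted p = 0.751). Bdnf, the neurotrophin gene, was at 3.23 to 5.22 FPKM in control, at 4.56 to 5.74 in 4 PTZ libraries and at 22.2 in PTZ replicate 4. Ptgs2, encoding the inducible cyclooxygenase, was at 9.75 to 10.96 FPKM in control, 11.5 to 21.3 in 4 PTZ libraries and 107 in PTZ replicate 4. The kinase gene Sik1 (log2 difference 1.00) and Gem, encoding a small GTPase that limits calcium channels (0.69 ± 0.192), had the smallest p of the list. Homer1, a postsynaptic scaffold gene whose short form is activity-induced, had a difference of 0.32, and isoforms were not separated here.

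Of the 14 MAP kinase feedback genes 12 had higher means (median 0.17), and Dusp1, Dusp6 and Errfi1 did not overlap. Without PTZ replicate 4 the median was 0.08, with 10 of 14 higher. Dusp1, a nuclear phosphatase of MAP kinases, was at 14.5, 29.0, 36.8 and 24.2 FPKM in control and at 65.3, 61.6, 98.8, 92.7 and 44.5 FPKM in PTZ. All PTZ libraries were above all controls, and its adjusted p was 0.215 (1.46 ± 0.287). Dusp6, which acts on ERK, was at 17.6 to 22.7 and 28.4 to 61.7 FPKM (0.89), and Errfi1, an inhibitor of the EGF receptor, at 3.67 to 4.72 and 6.50 to 9.85 FPKM (0.76). Growth arrest and DNA damage genes had higher means in 14 of 15 (median 0.30, 4 at an unadjusted p under 0.05), and without PTZ replicate 4 the median was 0.17 with 2 at an unadjusted p under 0.05. Btg2, an antiproliferative gene, was at 9.15 to 15.2 FPKM in control and 14.3 to 65.7 in PTZ (1.57 ± 0.481), and Gadd45g at 9.19 to 13.96 and 16.7 to 67.5 FPKM (1.20 ± 0.453).

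PTZ rats differed among themselves in these genes by more than the controls did, through PTZ replicate 4. Over the 65 genes the median log2 level above the control mean was 1.23 in PTZ replicate 4, 0.51 in replicate 3, 0.28 in replicate 1, 0.23 in replicate 5 and 0.22 in replicate 2, against -0.15 to 0.13 in the 4 controls. Apart from replicate 4 the PTZ libraries ran from 0.22 to 0.51, a range about as wide as that of the controls. PTZ replicate 4 was the highest of its group in 54 of the 65 genes and replicate 3 the next highest in 38, whereas replicate 5 was the lowest in 25 and replicate 2 in 19. PTZ replicates 3 and 4 were also the PTZ libraries without Y-linked transcripts. Control replicates 3 and 4, also without them, were at 0.13 and 0.07, and control replicates 1 and 2 at -0.15 and -0.08. In libraries with and without these transcripts the log2 differences were 2.04 and 3.43 for Npas4 and 0.40 and 1.33 for Arc. For Nr4a2 they were 1.30 and 0.90, and for Klf2 0.98 and 0.23. The part of this trait was not tested. Without PTZ replicate 4, 56 of the 65 genes had higher means, 19 at an unadjusted p under 0.05, with a median of 0.36. Without control replicate 2 and PTZ replicates 1 and 2, whose striatal or meningeal markers stood apart, 62 had higher means, 26 at an unadjusted p under 0.05, with a median of 0.73. Of the called genes, Apold1, Zfp36 and Nfkbia were also highest in PTZ replicate 4, and Apold1 and Zfp36 were lowest in replicate 5. Cyr61 was highest in replicate 1, and Nfkbia was nearly as high in replicate 5 as in replicate 4.

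Among 17 vascular and matrix genes tested Apold1 and Cyr61 were the 2 called, and 12 had higher and 5 lower means (median 0.25, 6 at an unadjusted p under 0.05). Without PTZ replicate 4 the median was 0.16. Thbs1, encoding the matrix protein thrombospondin 1, had groups that did not overlap, at 0.900 to 1.66 FPKM in control and 2.34 to 4.61 in PTZ (named after its values were seen). Adamts1, encoding a secreted metalloprotease, was at 1.29 to 2.91 FPKM in control and at 8.30, 4.12, 4.76, 4.13 and 2.504 FPKM in PTZ (0.91 ± 0.272, adjusted p = 0.431). Replicate 1 was the highest library for Cyr61, Thbs1 and Adamts1, and it also had the highest meningeal marker mean. Without control replicate 2 and PTZ replicates 1 and 2 the log2 difference of Cyr61 was 2.60 (adjusted p = 0.0887), the list median 0.17 and the number at an unadjusted p under 0.05 3. The part of meningeal tissue in these values was not tested. Vegfa and Hmox1, targets of hypoxia and heme, had differences of -0.01 and 0.03.

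In the NF-kB list the 2 genes without overlap both encode IkB proteins, but Nfkbib, another IkB gene, had the lowest difference of the list (-0.13). Of 13 tested genes 7 had higher means (median 0.01), Nfkbia was the 1 called, and Nfkbiz, encoding a nuclear IkB protein, was the other gene without overlap (0.274 to 0.742 FPKM in control, 0.933 to 1.17 in PTZ, 0.42 ± 0.117, adjusted p = 0.407). Nfkbiz was below 1 FPKM in every control and so reached the filter through other libraries. The same held for Rel, and of the other 11 genes tested 5 had higher means, 1 of them without overlap. The subunit genes Rela and Nfkb1 had differences of -0.02 and -0.03. Of 23 cytokine, chemokine and innate receptor genes only 11 were abundant enough to test, and 8 of these had higher means. Ccl2, encoding a monocyte attractant, was at 0 to 0.150 FPKM in control and 0.463 to 1.46 in PTZ. It and Socs3 reached 1 FPKM in no control library, so they were tested only because of libraries of rats given PTZ, and of the other 9 genes 6 had higher means and 0 an unadjusted p under 0.05. Il1b, encoding interleukin 1 beta, was at 0.127 to 0.554 FPKM in control and 0 to 0.956 in PTZ and was not tested. Interferon response genes were split (9 of 16 higher, median 0.02). Ifit3 was at 0.574 to 1.09 FPKM in control and 2.39 to 6.16 in PTZ (1.26 ± 0.265, adjusted p = 0.239), while the transcription factor gene Irf1 had a difference of -0.31. Ifit3 reached 1 FPKM in control only in replicate 2, so it met the filter through libraries of rats given PTZ.

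Zfp36 stood apart within the AU-rich element list, where 12 of 15 genes had higher means but the median was 0.06. Elavl4, encoding the neuronal protein HuD that stabilises such mRNAs, was at 10.1 to 13.4 FPKM in control and 13.4 to 17.2 in PTZ (0.27 ± 0.0858, adjusted p = 0.466). Glucocorticoid-related genes had higher means in 12 of 18 (median 0.18, 4 at an unadjusted p under 0.05, 2 without PTZ replicate 4). Sgk1, a kinase gene induced by corticosteroids, was at 18.3, 29.2, 37.3 and 41.8 FPKM in control and at 42.8, 42.0, 54.9, 78.5 and 107.5 FPKM in PTZ. Its highest library was PTZ replicate 5, which was the lowest for Apold1, Fos and Npas4 (log2 difference 0.98 ± 0.284, adjusted p = 0.416). The receptor genes Nr3c1 and Nr3c2 had differences of 0.01 and -0.02, and Fkbp5, a widely used glucocorticoid target, -0.02. Clock genes had 12 of 16 higher means (median 0.10), with Per1 (0.69) the 1 at an unadjusted p under 0.05.

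**Figure D4:**
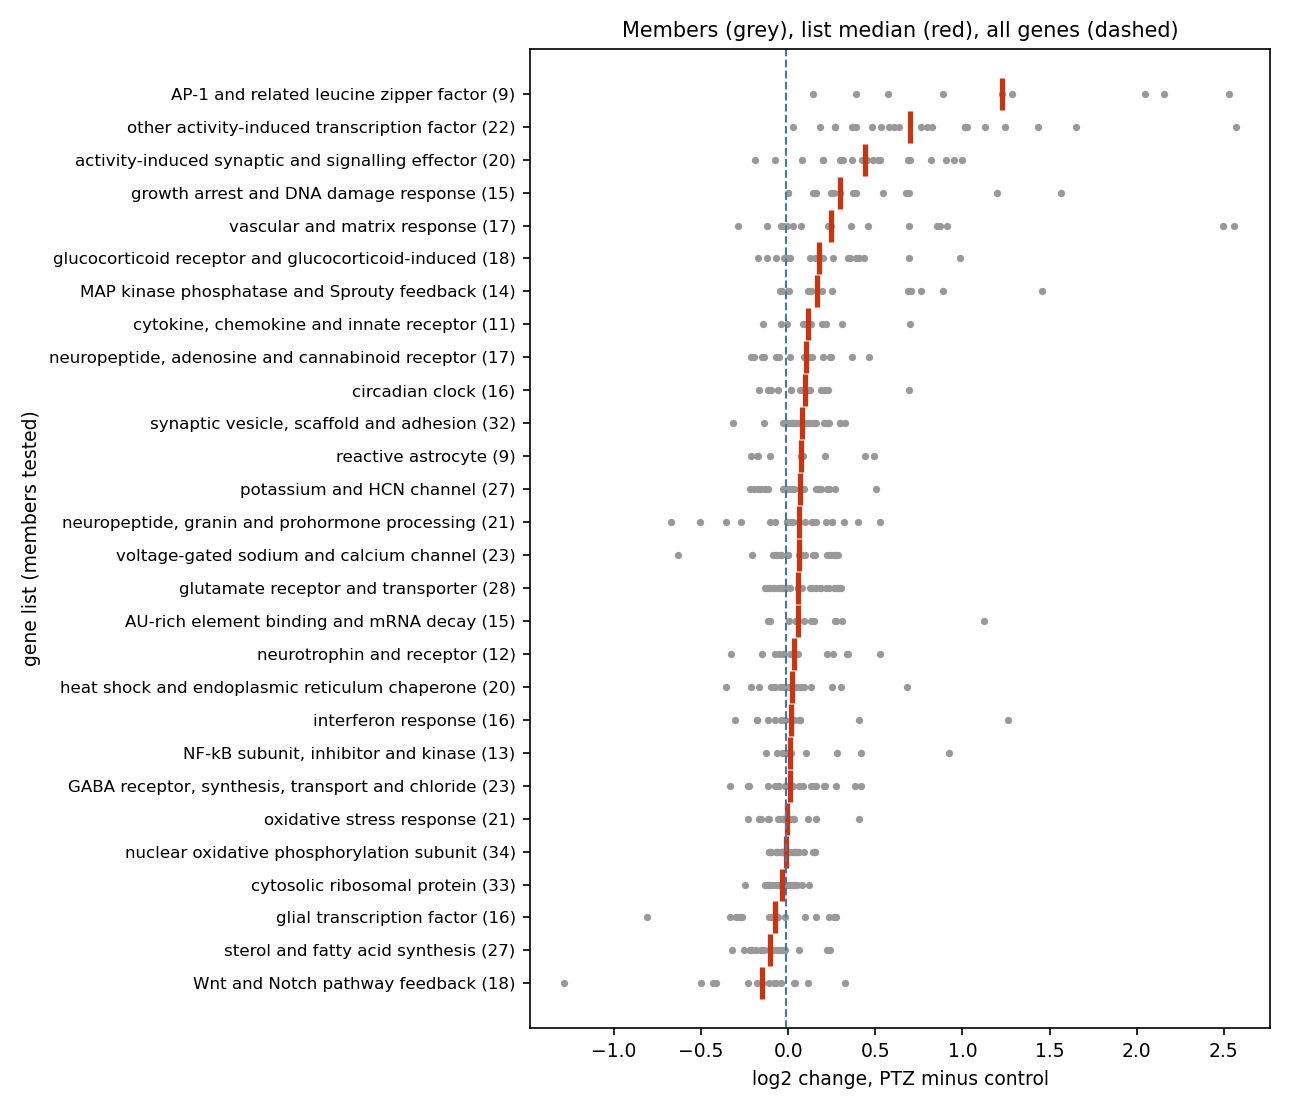
Log2 difference, PTZ minus control (horizontal axis), of every tested member of 28 gene lists (vertical axis, number tested in brackets), with the list median in red and the median of all genes (-0.01) as a dashed line. Medians run from 1.23 for AP-1 genes to -0.15 for Wnt and Notch feedback genes.

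Genes of the receptor that PTZ blocks were measured at high levels, and the subunit gene Gabrb2 was among the 20 genes of smallest p. Gabrb2, the beta 2 subunit gene, was at 13.6, 18.6, 14.7 and 13.4 FPKM in control and at 18.7, 20.8, 20.5, 20.1 and 21.4 FPKM in PTZ (0.42 ± 0.0882, adjusted p = 0.239). All its PTZ libraries were above all controls, although control replicate 2, the library with striatal transcripts, came close to the lowest PTZ library for Gabrb2. Without that control Gabrb2 passed (0.52, adjusted p = 0.028), as it did with weights per library (adjusted p = 0.0479), and in the other 26 alternatives it did not, with adjusted p up to 0.652. Over the whole list of 23 GABA genes 13 had higher and 10 lower means (median 0.01). The extrasynaptic delta subunit gene Gabrd had a difference of -0.23. Slc32a1, the vesicular GABA transporter gene, was at 37.9 to 58.6 FPKM in control and 33.2 to 35.0 in PTZ (-0.34 ± 0.111, adjusted p = 0.483), and its highest library was again control replicate 2, without which the difference was -0.19. Slc12a5, the neuronal chloride exporter gene, had a difference of 0.03 ± 0.101, which was smaller than the spread between replicates.

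Glutamate receptor genes had higher means in 16 of 28 (median 0.06, 3 at an unadjusted p under 0.05, 0 called). These 3 were the AMPA receptor subunit genes Gria3 (29.7 to 32.5 FPKM in control, 31.1 to 41.2 in PTZ, 0.28 ± 0.0683, passing without PTZ replicate 1 at an adjusted p of 0.0368), Gria2 (0.29) and Gria4 (0.22). Grin2b, an NMDA receptor subunit gene, had a difference of 0.16 ± 0.107. Of 23 sodium and calcium channel genes 12 had higher means, with Cacnb4, an auxiliary calcium channel subunit gene, the 1 without overlap (5.79 to 8.28 and 8.91 to 10.2 FPKM, 0.28). Of 27 potassium and HCN channel genes 18 had higher means, and Kcnh7, an ERG-type potassium channel gene, did not overlap (2.74 to 3.82 and 4.44 to 5.72 FPKM, 0.50 ± 0.126, adjusted p = 0.335). The share of all genes tested without overlap was 3.03%. Synaptic vesicle and adhesion genes had 25 of 32 higher means with a median of 0.08, among them Syt4 (0.30) and Nlgn1 (0.23). The medians of the glutamate and vesicle lists changed sign when libraries were left out (lowest -0.00817 and -0.00452). Neuropeptide and granin genes had 0 of 21 at an unadjusted p under 0.05 in either direction, and Penk (243.6 FPKM in control replicate 2, 18.9 to 41.4 in the other 8 libraries) again set that control apart.

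Sox9 and Hes5, genes of glial identity and Notch signalling, were among those with lower values in PTZ, of which 0 were called. Sox9, a transcription factor gene of astrocytes and neural stem cells, was at 8.30, 7.15, 6.78 and 6.72 FPKM in control and at 4.74, 3.45, 4.77, 2.95 and 2.86 FPKM in PTZ. The groups were apart, and the log2 difference was -0.81 ± 0.136 with an adjusted p of 0.0836, the smallest after the 4 called genes. It passed with weights per library (adjusted p = 0.0442) and without PTZ replicate 1 (adjusted p = 0.039). In the other 26 alternatives it did not pass, with adjusted p of 0.441 without control replicate 1 and 0.652 without the 3 libraries low in Ttr, and log2 differences from -0.96 to -0.74 over all 28. Hes5, a Notch target gene of neural progenitors and astrocytes, was at 12.3, 11.8, 8.55 and 14.1 FPKM in control and at 5.79, 4.37, 4.41, 5.60 and 1.73 FPKM in PTZ (-1.29 ± 0.3002, adjusted p = 0.306). It was the most negative difference among genes without overlap, and its values rested on at most 61 fragments in PTZ. Hes1, another Notch target, went the other way (5.63 to 7.04 FPKM in control, 7.09 to 9.33 in PTZ, 0.32 ± 0.0846).

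Wnt and Notch feedback genes had lower means in 14 of 18 (median -0.15), 4 at an unadjusted p under 0.05 and 4 wholly below control. The shares over all genes tested were 3.92% and 1.59%. Without control replicate 2 the median was -0.07 with 12 of 18 lower, and without PTZ replicate 5 it was -0.1005. These 4 were Hes5, the homeobox gene Hhex, the proto-oncogene Mycn and the Wnt target Axin2 (the last named after its values were seen). Hhex was at 1.36 to 2.41 FPKM in control and 0.808 to 1.09 in PTZ (-0.50), and Mycn at 3.28 to 3.97 and 2.06 to 2.89 FPKM (-0.43). Axin2 was at 5.77 to 6.83 FPKM in control, 5.25 to 5.42 in PTZ replicates 1 to 3 and 3.19 and 3.26 in replicates 4 and 5. Of 16 glial transcription factor genes 10 had lower means (median -0.08), among them Sox8 (-0.30), whereas Id2, encoding an inhibitor of bHLH factors, was higher (76.1 to 97.0 FPKM in control, 98.3 to 121 in PTZ, 0.28). Without control replicate 2 these 16 genes were split at 8 higher and 8 lower (median -0.02). Of all genes tested 46.3% had higher means. Astrocyte markers as a whole were at means of 6.55 to 6.82 in control and 6.35 to 6.77 in PTZ on the log2 scale, and Gfap had a difference of -0.18 ± 0.108. Astrocyte markers had lower means in 5 of 6 (median -0.13, -0.07 without control replicate 1 and -0.15 without control replicate 2). Without control replicate 2 and PTZ replicates 1 and 2 their median was -0.24, with 0 of 6 higher and 2 lower at an unadjusted p under 0.05. Myelinating oligodendrocyte markers had lower means in 5 of 5 (median -0.23), at mean log2 levels of 7.93 to 8.89 in control and 7.999 to 8.599 in PTZ. Their median was -0.06 without control replicate 2 and -0.02 without it and PTZ replicates 1 and 2. Sox9 had differences of -0.82 and -0.89 in the same fits. The part of either cell type in the values of this group was not tested.

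**Figure D5:**
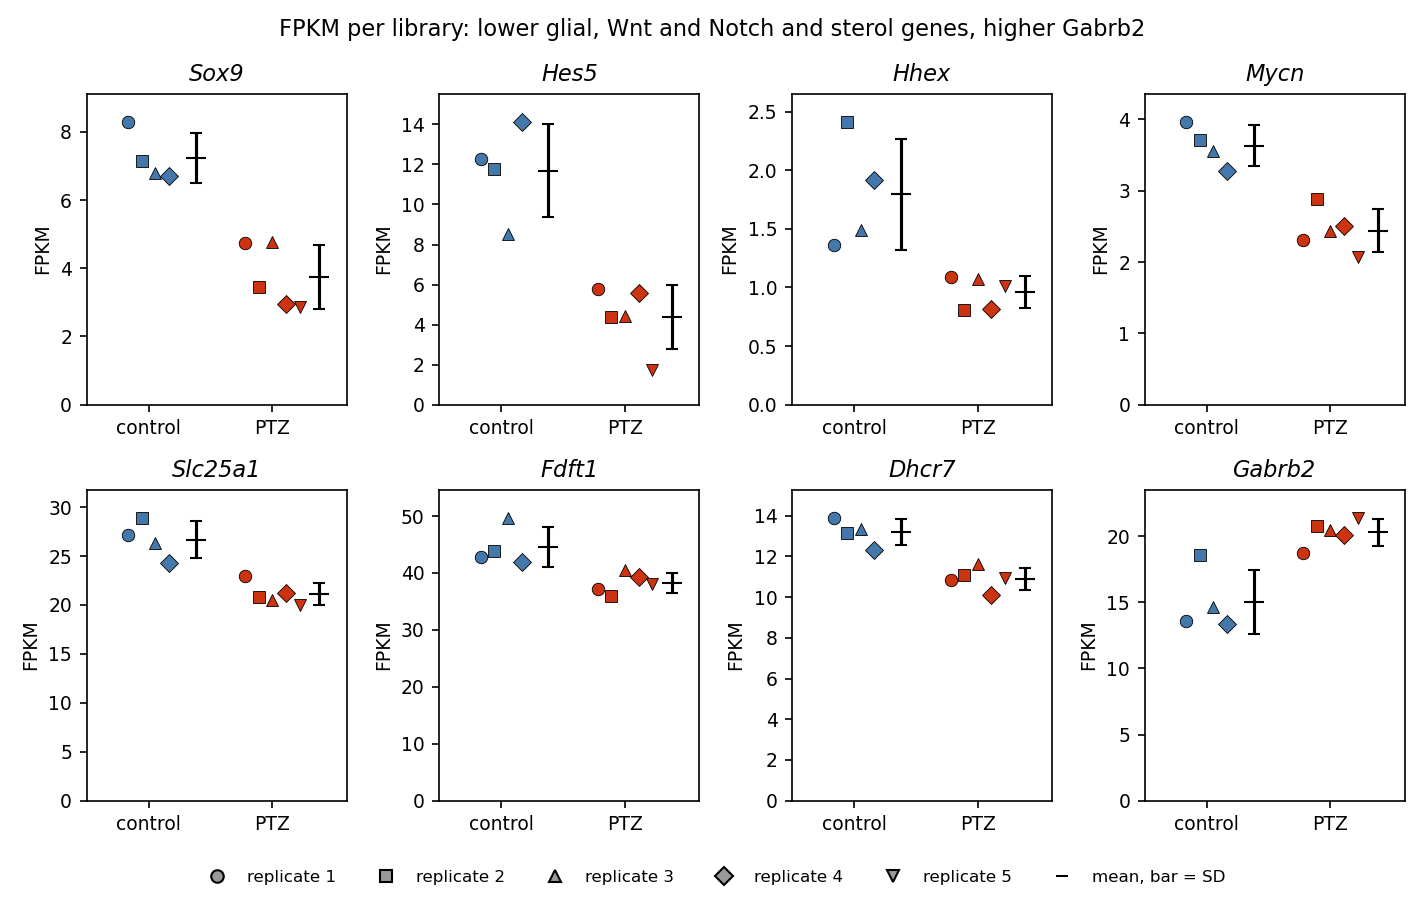
FPKM (vertical axes) of Sox9, Hes5, Hhex, Mycn, Slc25a1, Fdft1, Dhcr7 and Gabrb2 in each control (blue) and PTZ (red) library, with symbols by replicate number and the mean and SD beside each group. No group overlaps the other in any panel, and 0 of the 8 genes were called.

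Sterol and fatty acid synthesis genes had small differences in 1 direction, with lower means in 24 of 27 and a median of -0.10. Of these 7 had an unadjusted p under 0.05, and 4 were wholly below control, against 3.92% and 1.59% of all genes tested. Slc25a1, the mitochondrial carrier gene that exports citrate for lipid synthesis, was at 27.2, 28.9, 26.3 and 24.3 FPKM in control and at 22.9, 20.8, 20.5, 21.3 and 20.02 FPKM in PTZ (-0.32 ± 0.0603, adjusted p = 0.154). Fdft1, encoding squalene synthase, was at 42.0 to 49.7 and 36.0 to 40.5 FPKM (-0.22), and Dhcr7, encoding an enzyme at the end of cholesterol synthesis, at 12.3 to 13.9 and 10.1 to 11.6 FPKM (-0.25). Fasn, encoding fatty acid synthase, was at 47.3 to 49.0 and 38.5 to 45.9 FPKM (-0.16, named after its values were seen). Slc25a1 passed with a term for Y-linked transcripts (-0.33, adjusted p = 0.0479). Median differences of this list ran from -0.12 to -0.09 when libraries were left out. Myelinating oligodendrocytes make much sterol, and their markers were lower as well (5 of 5, median -0.23). Without control replicate 2 and PTZ replicates 1 and 2 the marker median was -0.02 and that of the synthesis genes -0.0954. The part of these cells in the values of the synthesis genes was not tested.

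Other genes near the top by p belonged to no list. On the higher side these were the kinase gene Rock2 (21.9 to 23.0 FPKM in control, 26.3 to 31.6 in PTZ, 0.36 ± 0.0636, adjusted p = 0.128), the thyroid hormone deiodinase gene Dio2 (7.15 to 7.96 and 9.41 to 13.4 FPKM, 0.53), the autophagy gene Rb1cc1 (0.40), the endosomal tether gene Eea1 (0.39), the Ras GTPase activating gene Rasa1 (0.31) and Tmem252 (0.354 to 1.28 and 1.82 to 3.58 FPKM, 1.28). On the lower side were Brat1 (-0.26), Bola1 (-0.35), Ndor1 (-0.34), Cd33 (-0.50), Mri1 (-0.35), Crlf2 (-0.31), Zbtb49 (-0.30), Rfxank (-0.27) and Nr2f6 (-0.21). All of these except Bola1 had groups that did not overlap. Tmem252 reached 1 FPKM in control only in replicate 4, so it met the filter through libraries of rats given PTZ. Slc35d3 had the most negative difference after Hes5 among genes without overlap (-0.85), and its control replicate 2 stood at 5.91 FPKM against 1.63 to 1.93 in the other controls. Without that library its difference was -0.52, smaller in size than that of Sox9. Lipt2, Pou3f4, Ndufa4l2 and Mex3b, also without overlap, had differences from -0.51 to -0.43.

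Housekeeping and stress lists gave little. Cytosolic ribosomal protein genes had 0 of 33 at an unadjusted p under 0.05 (median -0.03), and oxidative phosphorylation genes 1 of 34, Sdhc (-0.11). Oxidative stress response genes had 13 of 21 lower means (median -0.01), with Keap1, the inhibitor of Nrf2, at 19.3 to 22.3 FPKM in control and 18.0 to 18.5 in PTZ (-0.16). The chaperone list was split at 11 of 20 higher. Hsp90aa1, encoding an inducible HSP90, was at 12.3, 13.9, 13.98 and 13.9 FPKM in control and at 26.4, 29.0, 13.4, 19.8 and 26.9 FPKM in PTZ. It was high in PTZ replicates 1, 2 and 5 and within the control range in replicate 3 (0.68 ± 0.206, adjusted p = 0.431). That pattern was not the one of the activity-induced genes, for which replicates 1, 2 and 5 were the lowest.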

How the data were processed

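Per the labels' protocols, total RNA of hippocampal tissue was extracted, and bead-captured mRNA was sequenced on a BGI T7. The authors deposited FPKM for 22601 genes per sample. Bowtie2, Cufflinks, DESeq, HISAT2, HTSeq, SAMtools, StringTie and Trimmomatic are named per the submitters' processing notes, without role or version, and the genome build is not given in the sources used here. Fragment numbers were recovered from the steps between FPKM values (17241 of 17242 genes above 0 in 6 or more libraries, tolerance 0.02 of a fragment).

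A gene was tested if its FPKM reached 1 in 4 or more of the 14 samples (12744 genes), on log2(FPKM + 1), which understates the change of low genes. One limma fit (version 3.58.1, R 4.3.3) held the 3 groups, with a mean-dependent prior variance, 11 residual degrees of freedom and group as the only term. The contrast was PTZ minus control, two-sided, with Benjamini-Hochberg adjustment over all genes and a threshold of 0.05. The script was tested on simulated data. Errors are SE for log2 differences and SD for FPKM.

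The members, lists and rules were chosen with earlier results of these data known. Genes named are those called, the 15 of smallest p in each direction, the 10 highest and lowest among genes without overlap, all AP-1 and activity-induced factors, up to 3 members of each other list with an unadjusted p under 0.05, and 10 fixed genes. Placeholder symbols and genes whose higher group was below 1 FPKM were left out. Members named as examples of a list that showed no difference were chosen after their values were seen. A few genes that meet these rules are left out here. All 656 list members were found. Promoters came from RefSeq (GRCr8) and were matched by gene identifier. Alternatives were another pseudocount, filters, scalings, groups, weights, terms and left-out libraries. Voom on the recovered fragments was chosen after seeing the data. Figures were drawn with matplotlib 3.10.9.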

Additional observations from a re-analysis of the deposited data

Results flagged for a closer look

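Single libraries lay far from the rest of their group (Dixon's test at 95%) in 35 of 252 groups of values examined. Chance gives about 1 in 20 if groups are independent and values normally distributed. Many of the groups hold genes that vary together over the same libraries, so the 35 are not separate events. PTZ replicate 4 accounts for 23 of these. It was the high library for the AP-1 genes Fosb (137.7 FPKM), Atf3 (28.69), Fosl1 (2.678), Fosl2 (43.94), Jun (109.5), Jund (105.5) and Maff (6.528). It was also high for Egr3 (169.4 FPKM), Egr4 (135.4), Nr4a2 (59.08), Nr4a3 (71.24), Klf10 (20.78), Csrnp1 (12.54), Srf (41.31), Nfil3 (9.962), Cebpd (23.81) and Crem (6.574). Among effector and other genes it was high for Homer1 (25.36 FPKM), Per1 (26.67), Bdnf (22.19), Ptgs2 (107.4) and Ifit3 (6.158), and it was low for Sox8 (9.171).

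Control replicate 2 was the high library for Slc35d3 (5.907 FPKM), Slc32a1 (58.64), the mean log2 level of striatal markers (5.358) and that of thalamic markers (3.612), and PTZ replicate 2 was low for the striatal mean (1.931). Control replicate 4 was high for Tmem252 (1.277 FPKM), Rfxank (9.806) and Cacna1e (28.93). Control replicate 1 was low for Cacnb4 (5.791 FPKM) and Hsp90aa1 (12.27). PTZ replicate 5 was high for Rfxank (7.746 FPKM) and for the mean log2 level of oligodendrocyte markers (8.599).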

How the results depend on the processing

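The count of 4 called genes was also 4 under quantile, equal-total or median-of-ratios scaling, with 5 FPKM as the minimum or with a pseudocount of 0.1, each time the same 4 genes, 5 at an adjusted p under 0.1 and 3 without the 3 libraries low in Ttr. It was 1 with no filter and 1 with voom on whole fragments, in both cases Apold1. It was 0 with only control and PTZ in the fit, 0 with voom on those 2 groups and 0 without control replicate 2 and PTZ replicates 1 and 2. Weights per library gave 7 genes (6 higher, 1 lower) and a term for Y-linked transcripts 8 (7 higher, 1 lower). Over the 14 fits without 1 library it ran from 1 to 5. The sources used here do not say whether replicate numbers pair the samples. Of 4 same-numbered pairs of control and PTZ, 1 deviated together by a correlation over 0.1, and 4 pairs are too few to decide it. With the number as a replicate block the count was 0. Over the alternatives the log2 difference ran from 2.31 to 2.74 for Apold1, 2.31 to 3.20 for Cyr61, 0.80 to 1.08 for Nfkbia and 1.02 to 1.33 for Zfp36.

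Of 3171 values of named genes under alternatives, 3108 kept direction and side of the threshold, 48 no longer passed, 11 values of 9 genes passed only then, and 4 reversed. With single libraries left out, the log2 change of Jund ran from -0.01254 (without PTZ replicate 4) to 0.2056, and the log2 change of Slc12a5 from -0.03602 (without control replicate 2) through -0.01186 (without PTZ replicate 3) to 0.07108. Slc12a5 was -0.0557 without control replicate 2 and PTZ replicates 1 and 2. The causes were not tested. Leaving out 1 control or PTZ library moved the log2 difference of 23 of 111 named genes by over 1.5 times, 16 of them without PTZ replicate 4. It moved the medians of 24 of 28 lists as much, 17 of them lists whose median was within 0.1 of 0, and not those of the AP-1, other activity-induced factor, glucocorticoid and sterol lists. Depth and group did not separate, at 16871658 to 17830742 fragments in control and 16487915 to 18432957 in PTZ.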
